A study of Mus musculus with 6 samples.

Results

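Long non-coding RNAs (lncRNAs) assembled as the only transcript of their gene at a long intergenic locus formed a set of 618 among the 18573 newly assembled lncRNAs of mouse germline stem cells. They were chosen without their expression values: class code u, which the assembly comparison gives to a transcript outside known genes, a gene identifier found once in the table, a locus listed for fewer than 4 transcripts, an autosome, and a locus span of at least 20000 bp. The same rule with a shorter locus gave 12381 transcripts, which served for comparison. Spermatogonial stem cells (SSCs) from testis, labelled as 3 to 5 days old, and female germline stem cells (FGSCs) from ovary, labelled as 6 days old, were sequenced as 3 libraries each. The study's methods give the ages of the donors the other way round. All donors were C57BL/6 by their labels. In the methods they carried Ddx4-Cre, which is driven in the germ cell lineage, with the mT/mG reporter, and GFP-positive cells were sorted from pooled animals. The Ddx4-Cre line named there has an FVB background and was crossed with the mT/mG line, so labels and methods differ on the strain. The table holds 1 pooled FPKM value (fragments scaled to transcript length and to the mapped fragments of the library) for each transcript and cell type, which leaves no spread over replicates and no test between SSCs and FGSCs, and the reads behind a value are unknown. The levels of germ cell marker mRNAs were not analysed here. As these are bulk samples, fewer cells of a type and less RNA per cell cannot be told apart.

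lncRNAs are RNAs that do not code for protein, and intergenic ones are transcribed from their own promoters between genes. They are as a rule less abundant than mRNAs and more restricted to a cell type, and the germ line, the testis above all, is known to transcribe many of them. SSCs sustain sperm production by self-renewal and differentiation, and FGSCs are their counterpart isolated from the postnatal ovary by germ cell markers. The locus that the quantification program writes beside a transcript can be the extent of a whole group of overlapping transcripts, rather than that of the transcript itself.

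The loci went against the label "intergenic". In the GENCODE M21 annotation of the same genome build (mm10), 564 of the 618 lncRNAs had a locus that overlapped an annotated gene on either strand, and for 462 (74.8%) the locus overlapped a protein-coding gene. A further 102 (16.5%) overlapped only noncoding genes or pseudogenes, a lincRNA gene in 51 of them and a processed pseudogene in 31. No gene lay in the locus of 54 (8.74%). Among the lncRNAs at shorter loci the order was reversed, with 1037 (8.38%) over a protein-coding gene and 10231 (82.6%) free of genes. Their loci had a median span of 915 bp, against 43770 bp, and a longer interval is more likely to meet a gene by its length alone. The set is therefore named by its rule, as lncRNAs at long loci, and is described by 3 classes of gene context.

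The overlap was mostly with whole genes. At least 1 entire protein-coding gene lay inside the locus of 359 lncRNAs, and where the locus had a coding gene, coding genes covered a median of 91.0% of its span over these lncRNAs. The 618 lncRNAs lay at 458 distinct loci, none of which overlapped another locus of the table, and 352 of these loci (76.9%) overlapped a coding gene. The first base of 79 loci was the first base of an annotated gene, the last base of 73 was the last base of a gene, and 9 loci had both. Such a match was found for 143 of the 458 loci, against 26 of the 12102 distinct shorter loci. Of the shorter loci, 82.9% held no gene and so could have no match, which makes these shares unlike. At the 458 loci 296 lncRNAs were listed alone, 182 shared the locus with 1 other transcript and 140 with 2 others. The span thus belongs to the locus. The exons were not used here, and where in the locus a lncRNA lies is not known.

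**Figure D1:**
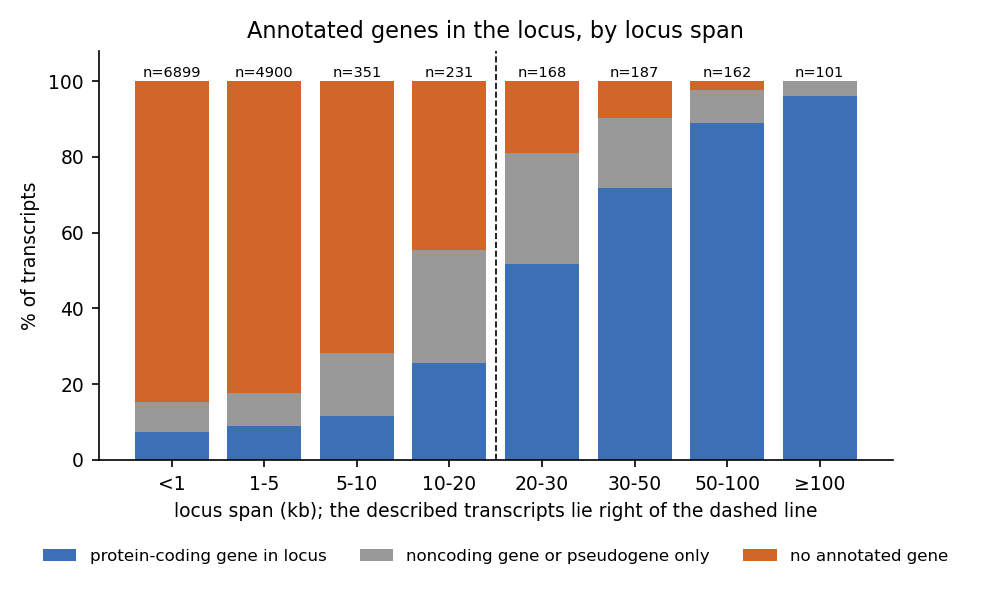
Share of single-transcript intergenic lncRNAs (vertical axis, %) whose locus holds a protein-coding gene, only noncoding genes or pseudogenes, or no annotated gene, by locus span in kb (horizontal axis), with the number of transcripts above each bar. Protein-coding genes were in the locus of 7.31% of transcripts under 1 kb and of 96.0% of those of at least 100 kb.

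The share of lncRNAs with a protein-coding gene in the locus was higher in each longer class of span. It was 25.5% at 10 to 20 kb, 51.8% at 20 to 30 kb, 71.7% at 30 to 50 kb, 88.9% at 50 to 100 kb and 96.0% above that, where no locus was free of genes. Any interval meets genes more often as it gets longer, and the share for random intervals of the same lengths was not tested. The median span over lncRNAs was 52887 bp with a coding gene in the locus, 31918 bp with only noncoding genes and 27075 bp without a gene. Over all 618 it was 43770 bp, with a range of 20019 to 998288 bp.

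Of the 54 gene-free lncRNAs, 35 had no gene in the RefSeq annotation either, and these come closest to the class code. The ends of 4 of their loci are shown, those with the highest FPKM in SSCs and in FGSCs among the loci listed for a single transcript. No other listed lncRNA shares such a locus. Assembled transcripts that are not listed may still belong to its group, so its ends need not be those of the lncRNA. The strand of the transcripts is not in the table, and the forward strand of the reference (RefSeq, GRCm38.p6) is printed. Capitals mark the poly(A) signal hexamer, AATAAA on the forward strand or TTTATT where it lies on the reverse strand.
TCONS_00048903, first 100 bases, chr14:82946905-82947004: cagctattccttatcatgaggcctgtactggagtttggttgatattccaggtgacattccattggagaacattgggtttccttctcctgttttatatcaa
TCONS_00048903, last 100 bases, chr14:82974457-82974556: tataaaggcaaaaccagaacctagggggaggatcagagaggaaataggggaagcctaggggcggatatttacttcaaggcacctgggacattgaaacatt
TCONS_00129270, first 100 bases, chr6:111742797-111742896: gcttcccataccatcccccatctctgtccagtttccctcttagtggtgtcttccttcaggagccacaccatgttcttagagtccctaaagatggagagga
TCONS_00129270, last 100 bases, chr6:111770444-111770543: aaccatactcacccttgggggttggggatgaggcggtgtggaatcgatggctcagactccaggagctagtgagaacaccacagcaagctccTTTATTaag
TCONS_00107590, first 100 bases, chr4:66589697-66589796: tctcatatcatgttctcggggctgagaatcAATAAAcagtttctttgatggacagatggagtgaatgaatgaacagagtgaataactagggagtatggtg
TCONS_00107590, last 100 bases, chr4:66610997-66611096: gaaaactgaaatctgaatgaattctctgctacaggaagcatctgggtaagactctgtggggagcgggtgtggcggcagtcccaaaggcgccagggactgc
TCONS_00126925, first 100 bases, chr6:15878660-15878759: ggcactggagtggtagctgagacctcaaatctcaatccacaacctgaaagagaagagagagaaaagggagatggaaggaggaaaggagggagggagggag
TCONS_00126925, last 100 bases, chr6:15912842-15912941: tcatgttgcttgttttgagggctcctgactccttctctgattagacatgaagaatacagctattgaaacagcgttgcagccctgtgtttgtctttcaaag

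AATAAA is the most frequent signal at which mRNA 3′ ends are cut and polyadenylated. In these 8 windows it was found forward in the first 100 bases of TCONS_00107590 and reversed in the last 100 bases of TCONS_00129270, in both cases in the orientation that points into the locus. A transcript that finishes at a locus end would have it in the other orientation, AATAAA in the last or TTTATT in the first 100 bases. That orientation was found at 8 of 45 gene-free long loci (17.8%), and the opposite orientation at 8 as well. At the 28 loci free of genes in both annotations the counts were 3 and 7. At the 352 long loci with a protein-coding gene it was found at 39.5%, against 13.6% for the opposite orientation, and at the 61 long loci with only noncoding genes at 16.4% and 14.8%. The 12102 shorter loci had it at 14.4%, with 12.9% in the opposite orientation. An excess over the opposite orientation was thus measured mainly at the long loci with coding genes, where locus ends in part coincide with gene ends. A match is a description of these letters only.

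**Figure D2:**
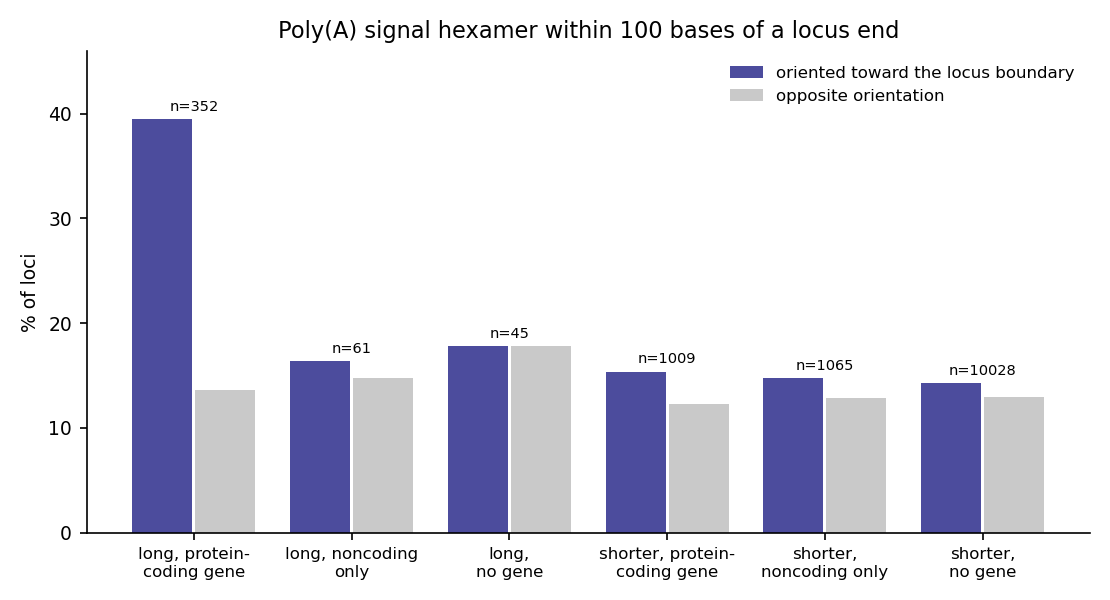
Share of loci (vertical axis, %) with a poly(A) signal hexamer within 100 bases of a locus end, oriented toward the locus boundary (dark bars) or in the opposite orientation (light bars), for long and shorter loci by gene context (horizontal axis), with the number of loci. The long loci with a protein-coding gene stand at 39.5% and 13.6%, whereas the other 5 classes lie between 12.3% and 17.8% for both orientations.

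Base composition differed less. The median GC content was 43.7% over 352 long loci with a coding gene, 41.6% over 61 with noncoding genes and 40.8% over 45 without a gene, and 44.5% over the shorter loci. Repeats masked in the reference took a median of 27.9%, 33.1% and 30.8% of the 3 classes of long loci and 21.1% of the shorter loci, introns and flanks included.

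The lncRNAs at long loci were low in both cell types. Their median was 0.338 FPKM in SSCs versus 0.560 FPKM in FGSCs, against 0.258 and 0.428 FPKM at the shorter loci. The middle 50% of them lay between 0.0767 and 0.785 FPKM in SSCs and between 0.293 and 0.907 FPKM in FGSCs. At least 1 FPKM was reached in SSCs or FGSCs by 192 of the 618 (31.1%), against 19.4% of the lncRNAs at shorter loci. At least 5 FPKM was reached by 6 lncRNAs in SSCs and by 8 in FGSCs, each at a locus with a protein-coding gene. Of the 12381 at shorter loci, 243 reached it in SSCs and 79 in FGSCs, and 216 and 60 of these were gene-free.

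Most were listed above 0 in both cell types, 490 of 618 (79.3%), against 73.5% at the shorter loci. In SSCs 99 (16.0%) were listed at 0 FPKM, and in FGSCs 29 (4.69%). Over all transcripts 18.9% were at 0 in SSCs and 7.16% in FGSCs, and at the shorter loci 18.8% and 7.72%. The shares of the set thus lay below those of all transcripts in both cell types. The 99 lncRNAs at 0 in SSCs had a median of 0.598 FPKM in FGSCs, and 12 of them had at least 1 FPKM there. The 29 at 0 in FGSCs had a median of 0.870 FPKM in SSCs, with at least 1 FPKM in 11. Without counts, a listed 0 can also be a failed estimate.

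Detection followed the gene context, more so in SSCs than in FGSCs. Among lncRNAs with a protein-coding gene in the locus 43 of 462 (9.31%) were listed at 0 in SSCs, among those with only noncoding genes 26 of 102 (25.5%), and among the gene-free ones 30 of 54 (55.6%). In FGSCs the shares at 0 were 2.60%, 10.8% and 11.1% in the same order. The median level in SSCs was 0.378, 0.298 and 0 FPKM in these classes, and in FGSCs 0.600, 0.415 and 0.411 FPKM. Counted with 1 lncRNA for each locus, 24 of 45 gene-free loci and 29 of 352 loci with a coding gene were at 0 in SSCs. Among lncRNAs with at least 0.5 FPKM in FGSCs, 17 of the 20 gene-free ones were at 0 in SSCs, against 27 of 272 with a coding gene. In the other direction, among lncRNAs with at least 0.5 FPKM in SSCs, 4 of 12 gene-free ones were at 0 in FGSCs. This held for 11 of 38 with only noncoding genes and for 8 of 195 with a coding gene. Both selections take lncRNAs that are high in 1 cell type. The split in SSCs was also present among the lncRNAs that the authors' program marked as having enough reads to test. There 17 of 31 gene-free lncRNAs and 23 of 334 with a coding gene were at 0 in SSCs. That mark is given once per transcript over both cell types, so a lncRNA at 0 in SSCs can carry it through FGSC reads alone. None of these 31 gene-free lncRNAs reached 0.5 FPKM in both cell types, so the mark does not show read support in SSCs.

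Length went with this difference at gene-free loci. The share of gene-free lncRNAs at 0 in SSCs was 21.8% under 1 kb, 17.6% at 1 to 5 kb, 26.2% at 5 to 10 kb, 31.1% at 10 to 20 kb and 46.9% at 20 to 30 kb. It was 13 of 18 at 30 to 50 kb and 2 of 4 at 50 to 100 kb, bins that hold few lncRNAs. With a coding gene in the locus the share lay between 0% and 11.2% in every class of span. In FGSCs no such order with length was seen, and the gene-free share at 0 was 10.8% under 1 kb and 9.38% at 20 to 30 kb. Among gene-free lncRNAs with at least 0.5 FPKM in FGSCs, 27.9% of the 4050 at shorter loci were at 0 in SSCs. Distance from genes also moved with it: the nearest protein-coding gene lay a median of 74040 bp from the locus of gene-free lncRNAs at long loci and 7330 bp from that of gene-free lncRNAs at shorter ones. The part of this distance in the result was not tested.

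**Figure D3:**
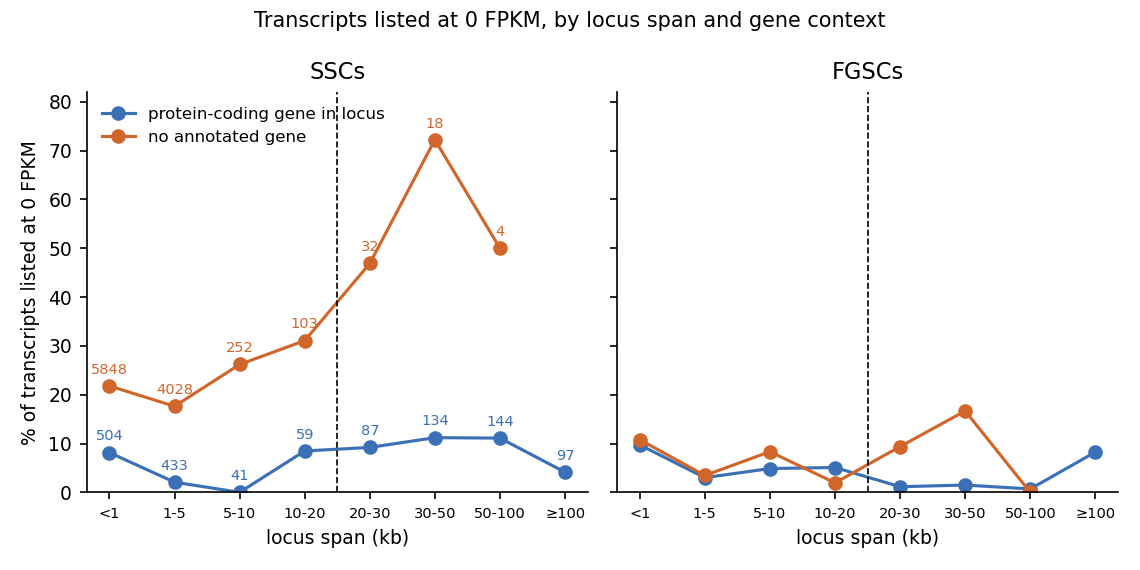
Share of transcripts listed at 0 FPKM (vertical axis, %) in SSCs (left) and FGSCs (right) by locus span in kb (horizontal axis), for loci with a protein-coding gene and loci with no annotated gene, with the number of transcripts beside the points of the left panel. In SSCs the gene-free share reaches 46.9% at 20 to 30 kb, whereas the share with a coding gene stays at or under 11.2%.

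Between the cell types, differences were counted over lncRNAs that reached 0.5 FPKM in either, on the log2(FPKM + 0.5) scale as the SSC value minus the FGSC value. This scale shrinks the change of low transcripts. Of the 457 such lncRNAs, 80 (17.5%) were over 2-fold higher in SSCs, where the background over all 12019 transcripts was 23.2%. Over 2-fold higher in FGSCs were 137 (29.98%), against a background of 31.0%. The share on the SSC side lay below its background and that on the FGSC side was near it. The remaining 240 differed by no more than 2-fold. The median difference was -0.46, and -0.42 over all transcripts, so that the set lay 0.04 below the table as a whole. Among the 137 higher in FGSCs, 59 were at 0 in SSCs, and among the 80 higher in SSCs, 23 were at 0 in FGSCs. The direction depended on scaling. With the medians of SSCs and FGSCs over all transcripts made equal, 155 were over 2-fold higher in SSCs and 100 in FGSCs, and with quantile normalization 100 and 103. The SSC share of these counts was 36.9% as deposited, 60.8% with equal medians and 49.3% with quantile normalization, and over all transcripts 42.8%, 61.3% and 56.1%. Over 2-fold higher in SSCs were 31.3% of the set with equal medians, where all transcripts had 35.2%, and 22.2% with quantile normalization, where all had 29.5%.

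Within the set, the gene-free lncRNAs had the median difference furthest from parity. Of the 32 that reached 0.5 FPKM in either cell type, 9 were over 2-fold higher in SSCs and 19 in FGSCs. All 32 reached it in 1 cell type only, 12 in SSCs and 20 in FGSCs, so that the filter itself set the cell types apart. With equal medians 14 of 34 were over 2-fold higher in SSCs and 19 in FGSCs, and with quantile normalization 12 of 33 and 16. Their median difference was -1.13 as deposited, -1.11 with equal medians and -0.998 with quantile normalization. It rested on the lncRNAs listed at 0, as the 11 above 0 in both cell types had a median of 0.999. With a coding gene in the locus 53 of 353 were over 2-fold higher in SSCs and 94 in FGSCs, and the median of -0.39 was 0.15 with equal medians and -0.30 with quantile normalization. For lncRNAs over noncoding genes only, 18 of 72 were over 2-fold higher in SSCs and 24 in FGSCs, with medians of -0.68, 0.72 and 0.19 under these 3 scalings.

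**Figure D4:**
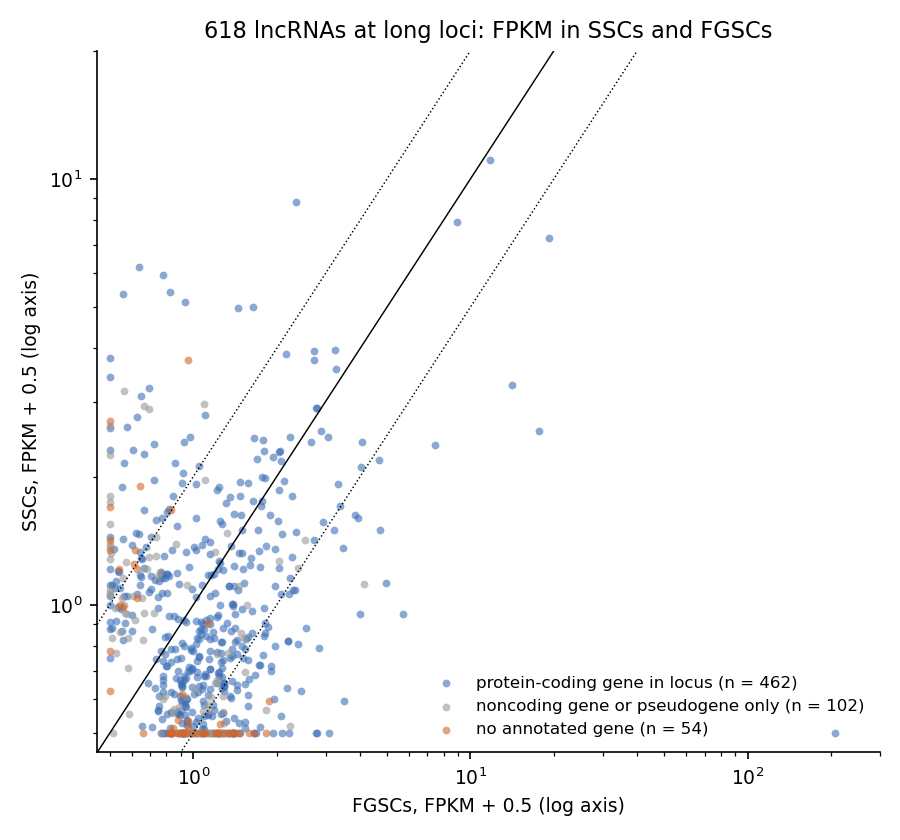
FPKM + 0.5 of the 618 lncRNAs in SSCs (vertical, log axis) against FGSCs (horizontal, log axis), 1 point per lncRNA, coloured by gene context. The solid line marks equal values and the dotted lines a 2-fold difference on this scale, and most of the 54 gene-free lncRNAs lie along the lower edge, where 30 are listed at 0 in SSCs.

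The 6 abundant lncRNAs described here each had a protein-coding gene in the locus, and the FPKM values are those listed for the lncRNA, not for that gene. Whether reads from that gene entered them was not tested. TCONS_00073360 had 10.6 FPKM in SSCs versus 11.3 FPKM in FGSCs, at chr19:41482504-41596178, over Lcor, a ligand-dependent nuclear receptor corepressor, the predicted gene Gm340 and the microRNA gene Mir8091. TCONS_00144328 had 7.43 FPKM in SSCs versus 8.46 FPKM in FGSCs at chr8:13338682-13378438, where Tfdp1, the dimerization partner of E2F transcription factors, covered 99.8% of the span. Both were close to equal in the cell types. TCONS_00054014 had 8.31 FPKM in SSCs versus 1.85 FPKM in FGSCs, at chr15:86212808-86498503 over Tbc1d22a, a protein with the TBC domain of Rab GTPase-activating proteins, and was 4.49-fold higher in SSCs. TCONS_00149577 had 6.78 FPKM in SSCs versus 18.6 FPKM in FGSCs, at chr8:85617877-85701789 over Neto2, an auxiliary subunit of kainate receptors, and Mir8109.

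In FGSCs the highest value of the set was that of TCONS_00117683, with 206.7 FPKM in FGSCs and a listed 0 in SSCs, at chr5:26006656-26051494. Its locus holds Speer4a and Gm5862, and Speer genes form a family of near-identical copies, so that reads may have been shared among copies and the value is uncertain. TCONS_00045373 had 2.05 FPKM in SSCs versus 17.2 FPKM in FGSCs, at chr14:60218079-60252255 over Nupl1, a nucleoporin, and Mir719. Its FGSC value was 8.38-fold the SSC value.

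Of these 6 abundant lncRNAs, 3 thus had a microRNA gene in the locus, against 62 of all 618 (10.03%). Over the set this share rose with span, to 22.8% at loci of at least 100 kb. MicroRNAs pair with target mRNAs through their seed, bases 2 to 8. The mature forms that RefSeq lists (GRCm38.p6) are shown to identify the 3 genes, with the seed in capitals. All 3 genes matched, and the 3 mature forms have 3 different seeds. Their own levels were not analysed here, and whether the lncRNA and the microRNA come from the same precursor is not in the table.
mmu-miR-8091 (Mir8091): aGGAGUGAgugguaagcuggug
mmu-miR-8109 (Mir8109): gCGCCGCGugccggccgcggg
mmu-miR-719 (Mir719): aUCUCGGCuacagaaaaauguu

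Large differences toward SSCs were also found at loci with coding genes. TCONS_00056713 had 4.87 FPKM in SSCs versus 0.0598 FPKM in FGSCs, at chr16:36991361-37095417 over Polq, a DNA polymerase of end-joining repair. TCONS_00032851 had 5.45 FPKM in SSCs versus 0.275 FPKM in FGSCs, within a locus that Mia2, a factor of export from the endoplasmic reticulum, covered entirely. On the log2 scale these differences were 3.26 and 2.94. TCONS_00120117, over Wscd2, had 3.29 FPKM in SSCs and a listed 0 in FGSCs.

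Toward FGSCs, the next differences after those of TCONS_00117683 and TCONS_00045373 were also at loci with coding genes. TCONS_00051965 was listed at 0 in SSCs and had 2.59 FPKM in FGSCs, at chr15:103402405-103498935 over Gtsf1, a factor of the piRNA pathway that silences transposons in germ cells, Gtsf2 and Nckap1l, a subunit of an actin-regulating complex of blood cells. TCONS_00034771 had 0.449 FPKM in SSCs versus 5.22 FPKM in FGSCs, over Fam228b and Pfn4, a profilin known from testis. It shared its locus with 2 other transcripts.

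**Figure D5:**
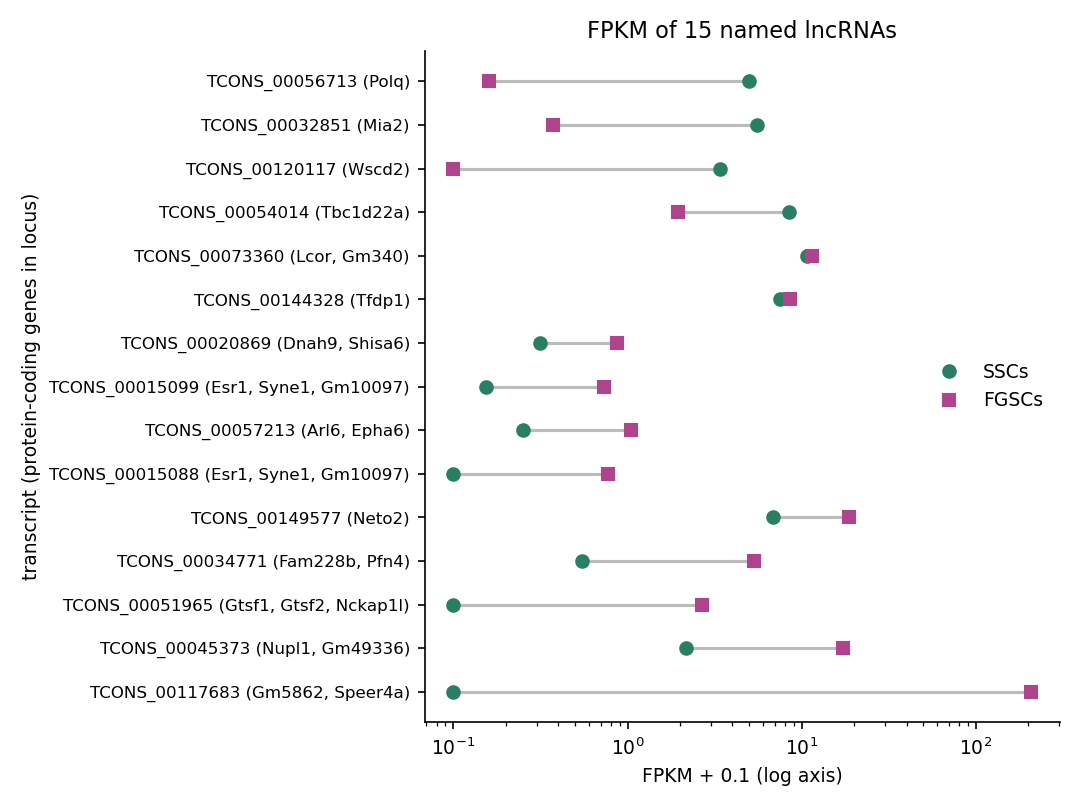
FPKM + 0.1 (horizontal, log axis) in SSCs (circles) and FGSCs (squares) of named lncRNAs with high values, large differences and the longest loci, with the protein-coding genes in the locus in brackets. Lines join the 2 values of a lncRNA, and the order runs by their difference on the log2(FPKM + 0.5) scale, with TCONS_00056713 the furthest toward SSCs among those drawn and TCONS_00117683 the furthest toward FGSCs.

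At the other extreme, 4 lncRNAs with at least 0.5 FPKM in both cell types were nearly equal. TCONS_00052308 over Mtdh had 0.751 FPKM in SSCs versus 0.750 FPKM in FGSCs. TCONS_00005300 over Nvl and Cnih4 had 1.002 FPKM in SSCs versus 0.993 FPKM in FGSCs. TCONS_00011048 over Taf1a had 0.872 FPKM in SSCs versus 0.863 FPKM in FGSCs, and TCONS_00050892 over Slc25a17 had 1.25 FPKM in SSCs versus 1.27 FPKM in FGSCs. Nvl and Taf1a act in ribosome production, and Slc25a17 is a carrier of the peroxisome membrane.

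The 4 lncRNAs at the longest loci were below 1 FPKM in both cell types. TCONS_00057213 had 0.149 FPKM in SSCs versus 0.942 FPKM in FGSCs at a locus of 998288 bp, which runs over Arl6, a small GTPase of cilia, and Epha6, an ephrin receptor. TCONS_00015099 and TCONS_00015088 share a locus of 715546 bp over Esr1, the estrogen receptor alpha, and Syne1, a protein of the nuclear envelope. They had 0.0532 and 0 FPKM in SSCs and 0.630 and 0.675 FPKM in FGSCs. TCONS_00020869 had 0.212 FPKM in SSCs versus 0.773 FPKM in FGSCs over Dnah9, an axonemal dynein heavy chain, and Shisa6.

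The limit on span cut through a continuous range. Just above it were TCONS_00144105 with 20019 bp over Zfp958, the gene-free TCONS_00134089 with 20084 bp and TCONS_00156967 with 20104 bp over Ubl7. They had 0.260, 0 and 0.205 FPKM in SSCs, against 1.28, 0.917 and 0.486 FPKM in FGSCs. Just below it were TCONS_00032222 with 19983 bp over pseudogenes, the gene-free TCONS_00054188 with 19900 bp and TCONS_00156660 with 19885 bp over Gm32742. They had 0.109, 0 and 0 FPKM in SSCs, against 0.0338, 1.01 and 0.467 FPKM in FGSCs. Genes and values were thus mixed on both sides of the limit.

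The lncRNAs were looked up at 8 gene lists, and whether other lists of the same size would hold more or fewer was not tested. Over all 12019 transcripts, 23.2% passed the 2-fold limit toward SSCs and 31.0% toward FGSCs, and the calls per list are too few to set against these. The 30 germ cell and stem cell genes had no lncRNA of the set at or nearest to them. The 22 genes of GDNF and PI3K signalling, which sustains SSC self-renewal, had 2: TCONS_00096477 over Pik3ca, the catalytic subunit of PI3 kinase, with 1.36 FPKM in SSCs versus 1.55 FPKM in FGSCs, and TCONS_00140767 over Igf1r, a growth factor receptor, with 0.848 FPKM in SSCs versus 0.526 FPKM in FGSCs. Neither passed the 2-fold limit.

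The 22 oocyte and meiosis genes had 4 lncRNAs, of which 1, at Sohlh2, passed the limit, toward FGSCs. TCONS_00050765 had 1.06 FPKM in SSCs versus 2.44 FPKM in FGSCs at a locus with Dmc1, the meiotic recombinase, which also holds Kdelr3 and Ddx17. TCONS_00070331 had 0.444 FPKM in SSCs versus 0.728 FPKM in FGSCs over Taf4b, a germ cell subunit of the general transcription factor TFIID. TCONS_00096950 and TCONS_00096949 share a locus with Sohlh2, a transcription factor of early germ cell differentiation, and were listed at 0 in SSCs, with 0.658 and 0.460 FPKM in FGSCs. Among 32 sex determination and gonadal somatic genes only Hsd3b1, an enzyme of steroid hormone synthesis, had a lncRNA. TCONS_00094597 was listed at 0 in SSCs and had 0.970 FPKM in FGSCs. The gene-free TCONS_00034532 lay 2179 bp from Tdrd9, a helicase of the piRNA pathway, and was listed at 0 in SSCs and at 0.492 FPKM in FGSCs. TCONS_00137591 over Usp29, an imprinted gene expressed from the paternal copy, had 1.13 FPKM in SSCs versus 0.901 FPKM in FGSCs.

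The 63 developmental transcription factors had 4 lncRNAs, 2 past the limit toward SSCs and 1 toward FGSCs. At Nr2f2, an orphan nuclear receptor, TCONS_00140800 and TCONS_00140801 share a locus over the gene and had 0.636 and 0.479 FPKM in SSCs and 0.0272 and 0.0467 FPKM in FGSCs. TCONS_00134089, whose nearest coding gene is Nr2f2 at 606461 bp, had the opposite order, 0 FPKM in SSCs versus 0.917 FPKM in FGSCs. TCONS_00086448 lay 1302139 bp from Zeb2, a repressor of epithelial genes, and had 0.870 FPKM in SSCs versus 0 FPKM in FGSCs.

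The 45 cadherin, protocadherin and other adhesion genes had 4 lncRNAs, all outside the genes and 644999 to 1469006 bp away. TCONS_00048903, nearest to Pcdh17, had 2.20 FPKM in SSCs and a listed 0 in FGSCs. TCONS_00092898, nearest to Pcdh18, had 2.38 FPKM in SSCs versus 0.190 FPKM in FGSCs. TCONS_00145228 and TCONS_00145229 share a locus 739267 bp from Tenm3, a synaptic adhesion protein, and had 0 FPKM in SSCs and 0.731 and 0.698 FPKM in FGSCs. So 2 passed the limit toward SSCs and 2 toward FGSCs. A nearest gene at such a distance is a position only.

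Most lncRNAs that shared a locus lay on the same side. Of 124 loci with 2 or 3 lncRNAs of the set, 113 had all of them on the same side, 35 higher in SSCs and 78 higher in FGSCs, and 11 had both directions. With equal medians 44 loci had all of them higher in SSCs and 62 had none higher in SSCs. In 16 of the 124 some but not all were listed at 0 in SSCs. Such lncRNAs are not independent of each other. The 296 lncRNAs listed alone had a median of 0.458 FPKM in SSCs versus 0.570 FPKM in FGSCs, and 13.9% of them were at 0 in SSCs, against 18.6% of the 140 that shared the locus with 2 others.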

How the data were processed

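Total RNA was depleted of rRNA, made into strand-specific libraries and sequenced, 6 libraries in all. The authors mapped reads to mm10 with TopHat2, assembled transcripts with Scripture and Cufflinks, removed transcripts with coding potential (CPC, CNCI) and quantified them as FPKM with Cuffdiff, which the submitters' notes give as 2.1.1. The deposited FPKM is 1 value per transcript and cell type over 3 libraries, without counts or depth. The deposited fold changes, p-values and q-values of the authors were not used. The deposited status column tells which transcripts had enough reads for the authors' test, with 1 mark over both cell types.

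Differences used a pseudocount of 0.5 FPKM and a minimum of 0.5 FPKM in SSCs or FGSCs, with no rescaling. Printed coordinates count from 1 on mm10, and locus starts of the table were raised by 1. An overlap was at least 1 bp with a GENCODE M21 gene on either strand. The set, the gene lists and the rule for named lncRNAs (highest 4 per cell type, 4 largest differences in each direction with at least 1 FPKM, 4 smallest with at least 0.5 FPKM in both, 4 longest loci, 3 on each side of the span limit, up to 2 per list) were chosen with earlier results of these data known. Where the rule named an lncRNA that is not described, it is not reported here, though the counts include it. Other lncRNAs are named from the lists after their values were seen. Overlap and fold steps were tested on simulated data. The tools were pysam 0.24.0, matplotlib 3.10.9, NumPy 2.4.6, pandas 2.3.3 and Python 3.11.15.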

Additional observations from a re-analysis of the deposited data

How the results depend on the processing

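Of 65 alternative values of the 8 main results, 35 stayed within 1.5 times the value reported, 29 moved further and 1 changed sign. With detection set at 0.1 FPKM, 168 lncRNAs were undetected in SSCs and 71 in FGSCs. At 0.5 FPKM these were 373 and 283, with 123 detected in both, and at 1 FPKM 509 and 488, with 47 in both. A pseudocount of 0.1 FPKM gave 207 over 2-fold higher in FGSCs and a median difference of -0.70, and a pseudocount of 1 FPKM gave 38 higher in SSCs, 40 in FGSCs and a median of -0.31. A minimum of 1 FPKM left 48 higher in SSCs and 63 in FGSCs, and a 4-fold limit 19 and 13. Equal medians gave 155 higher in SSCs and turned the median to 0.15, where that of all transcripts was 0.33. Quantile normalization gave -0.32, where all transcripts had -0.10. With loci of at least 10000 bp 44 were at 0 in FGSCs. With loci of at least 50000 bp the median span was 83811 bp, 224 were above 0 in both cell types, 28 at 0 in SSCs, 11 at 0 in FGSCs, 33 higher in SSCs, 47 higher in FGSCs, 259 over a gene, and the median difference was -0.27. These last counts come from fewer lncRNAs. With 1 lncRNA per locus 88 were higher in FGSCs. Among lncRNAs with enough reads for the authors' test, an alternative chosen after seeing the data, 55 were at 0 in SSCs. RefSeq genes, also chosen later, lay in the locus of 569 of the 618 lncRNAs, and in 418 of the 458 distinct loci.

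No paired analysis was possible because the table has 1 pooled value per cell type, and no library was left out for the same reason. The study lists the reads of each library, with a lower uniquely aligned share in the SSC libraries than in the FGSC libraries. Its part in the values listed at 0 was not tested. The reads behind each value are unknown, so that a listed 0 sets no limit.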

Other observations

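Genes for small RNAs (microRNA, snoRNA, snRNA and the like) were in the locus of 123 of the 618 lncRNAs (19.9%), and in 10 of the 20 most abundant, 22 of the top 50 and 33 of the top 100 by the higher of the SSC and FGSC values. A microRNA gene was in the locus of 62 lncRNAs (10.03%) and of 4 of the top 20, and in 49 of the 458 distinct loci (10.7%). The median span over lncRNAs was 83103 bp with a small RNA gene in the locus and 40357 bp without. Within spans of 30 to 50 kb the share with a small RNA gene was 24.0% among lncRNAs with at least 1 FPKM and 10.2% among the rest, at 50 to 100 kb 29.3% and 21.2%, above that 52.6% and 41.3%, and at 20 to 30 kb 6.52% and 7.38%. The lncRNAs at loci with small RNA genes had a median of 0.368 FPKM in SSCs versus 0.701 FPKM in FGSCs, and those without had 0.333 FPKM in SSCs versus 0.533 FPKM in FGSCs.

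The set was spread over all 19 autosomes, with 17 lncRNAs on chromosomes 18 and 19 each and 51 on chromosome 13. The set made up between 3.07% (chromosome 18) and 6.80% (chromosome 13) of the single-transcript intergenic lncRNAs. As deposited, 403 of the 618 (65.2%) were lower in SSCs than in FGSCs, near the 64.0% of all transcripts and the 63.1% at the shorter loci. On chromosome 1 this held for 42 of 46 lncRNAs at 34 loci, and with equal medians for 29 of the 46. At the shorter loci of chromosome 1 it held for 68.9%. The shares on the other chromosomes as deposited lay between 51.2% (chromosome 12) and 79.4% (chromosome 10). With equal medians chromosome 1 had 63.0% and did not stand out. Chromosomes 2, 6, 14 and 16 lay above it, at up to 66.7%, and the lowest share was 33.3% (chromosome 5).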
